A study of Mus musculus with 12 samples.

Results

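The Nat8 family of mouse is a tandem array of small N-acetyltransferase genes on chromosome 6. Its 8 protein-coding genes, Nat8 and Nat8f1 to Nat8f7, were taken by symbol from a table of 45777 genes, and all 8 were found and passed the expression filter that left 18730 genes. The cluster was selected on measured values of these libraries, the lower counts of Nat8f5 and Nat8f6 in PBS than in normal kidney, so the comparison of PBS with normal is given as a description, with no test. Counts were also summed over the 8 genes, because some of them share exons or sequence.

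RNA of whole kidney from male wild-type C57BL/6 mice was sequenced in 12 libraries, with 4 groups of 3; the labels give no age. The normal group received neither cisplatin nor vesicles, and no injection is listed for it. The PBS group received cisplatin intraperitoneally at 9 mg/kg, weekly for 5 cycles, and then 5 intravenous injections of phosphate-buffered saline at intervals of 3 days. The EV200 and EV400 groups received the same cisplatin course and then, on the same schedule, 200 or 400 µg of extracellular vesicles from cells that the labels name iMSC. Their kidneys were collected 3 days after the last dose. Since the normal group lacks both cisplatin and injections, their effects cannot be told apart. The labels call the 3 libraries of a group biological replicates of 1 batch and do not state that each is a separate mouse. The p-values therefore set a difference against the spread between libraries, estimated from all 12 in 1 fit.

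The best studied enzyme of the family, NAT8, sits in the endoplasmic reticulum membrane and adds an acetyl group to the cysteine S-conjugates that remain after glutathione conjugates have been trimmed. This is the last step of the mercapturic acid pathway, in which glutathione S-transferases couple glutathione to a reactive compound, gamma-glutamyl transferase and dipeptidases remove glutamate and glycine at the brush border, and the acetylated product is excreted in urine. Kidney proximal tubule is a major site of these steps, and beta-lyases that act on the same cysteine conjugates release reactive thiols, a route described for cisplatin toxicity. NAT8 and its close human relative are also described as lysine acetyltransferases of the endoplasmic reticulum, supplied with acetyl-CoA by the transporter SLC33A1; the RefSeq table gives CCNAT and ATase2 as other names of mouse Nat8.

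In RefSeq coordinates of build GRCm38.p6, the array spans 209 kb, from 85706707 to 85915914 of chromosome 6, and all 8 genes lie on the minus strand. The order by position is Nat8f7 (85706707 to 85708885), Nat8f3 (85760631 to 85765767), Nat8f6 (85808044 to 85809877), Nat8f5 (85817218 to 85820972), Nat8 (85830387 to 85836857), Nat8f2 (85865422 to 85869137), Nat8f4 (85899050 to 85909315) and Nat8f1 (85910154 to 85915914). In GENCODE vM21, which uses the same build, the Nat8f6 model also has exons over Nat8f5, and the 2 genes share 135 exonic bases on the same strand, 13.7% of the exonic bases of Nat8f5 and 7.95% of those of Nat8f6. The RefSeq spans of these 2 genes, given above, do not overlap. In GENCODE, Nat8f1 shares 478 exonic bases, 35.5% of its own, with Tprkb, a gene of the opposite strand. Tprkb encodes a subunit of the complex modifying transfer RNA. The libraries were stranded, but the strand setting of the counting is not given in the sources used here.

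Nat8f3, Nat8f6 and Nat8f7 are near-identical copies. Over the 28 gene pairs, coding sequences were 66.7 to 99.6% identical with a median of 71.3%. The highest values were 99.6% between Nat8f3 and Nat8f7, 99.3% between Nat8f3 and Nat8f6 and 99.1% between Nat8f6 and Nat8f7, and the next was 84.9% between Nat8f2 and Nat8f4. A read of 101 bases can be assigned to 1 gene only where that stretch is unique. Of the 101-base windows in its GENCODE transcripts, Nat8f7 had 31.9% that occurred in no other gene, Nat8f6 50.3% and Nat8f3 55.5%. The shares were 93.3% for Nat8f1 and Nat8f2, 93.4% for Nat8f4, 95.9% for Nat8f5 and 99% for Nat8. Values of Nat8f3, Nat8f6 and Nat8f7 taken singly are therefore uncertain, since the authors' counting could have split their reads.

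**Figure D1:**
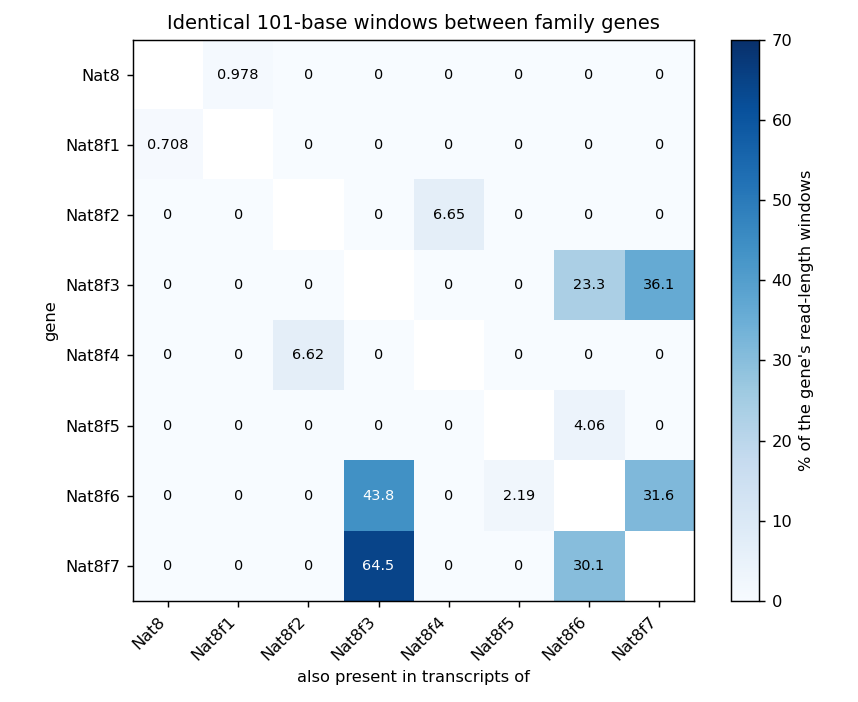
Percentage of the distinct 101-base windows of each gene (rows) that are also found, identical, in the GENCODE vM21 transcripts of another family gene (columns). Nat8f7 shares 64.5% with Nat8f3 and 30.1% with Nat8f6, while no pair outside Nat8f3, Nat8f6 and Nat8f7 shares more than 6.65%.

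Promoter sequences are shown for 4 genes because the data place these genes apart: Nat8f6 and Nat8f5 had the widest swings between groups, Nat8f2 had a narrow one, and Nat8f1 had the highest level. Each runs 5′ to 3′ from 250 bases before to 50 bases after a RefSeq start site. Capitals mark matches to the HNF1 palindrome consensus, the site of a homeodomain factor of proximal tubule and liver, with up to 3 mismatches, or to the CCAAT box, on either strand.
Nat8f6, chr6:85809828-85810127, minus strand: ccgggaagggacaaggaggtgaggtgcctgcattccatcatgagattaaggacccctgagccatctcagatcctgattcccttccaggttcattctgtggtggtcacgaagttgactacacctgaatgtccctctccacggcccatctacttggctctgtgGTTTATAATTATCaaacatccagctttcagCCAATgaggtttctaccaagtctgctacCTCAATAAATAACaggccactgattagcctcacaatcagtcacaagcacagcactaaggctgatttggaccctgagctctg
Nat8f5, chr6:85820923-85821222, minus strand: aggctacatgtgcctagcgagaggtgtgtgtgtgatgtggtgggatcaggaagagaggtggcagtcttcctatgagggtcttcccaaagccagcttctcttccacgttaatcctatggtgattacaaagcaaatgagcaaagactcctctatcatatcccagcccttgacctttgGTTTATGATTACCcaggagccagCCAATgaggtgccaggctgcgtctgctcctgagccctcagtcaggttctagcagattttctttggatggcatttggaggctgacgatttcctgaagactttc
Nat8f2, chr6:85869088-85869387, minus strand: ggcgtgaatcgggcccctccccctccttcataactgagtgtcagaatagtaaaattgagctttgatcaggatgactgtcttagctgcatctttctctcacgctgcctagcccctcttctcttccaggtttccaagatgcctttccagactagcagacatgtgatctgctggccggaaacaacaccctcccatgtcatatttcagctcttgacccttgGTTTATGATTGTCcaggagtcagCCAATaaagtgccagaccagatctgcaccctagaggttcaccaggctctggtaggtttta
Nat8f1, chr6:85915583-85915882, minus strand: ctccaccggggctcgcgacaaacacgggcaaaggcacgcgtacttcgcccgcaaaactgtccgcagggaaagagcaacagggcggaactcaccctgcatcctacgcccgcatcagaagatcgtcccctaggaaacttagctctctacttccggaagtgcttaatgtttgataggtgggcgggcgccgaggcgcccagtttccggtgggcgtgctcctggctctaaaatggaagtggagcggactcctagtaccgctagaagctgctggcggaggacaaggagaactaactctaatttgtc
The Nat8f6 and Nat8f7 promoters aligned over 292 columns with 286 identical, so the Nat8f6 sequence stands for both. The HNF1-like match GTTTATAATTATC of Nat8f6 had 2 mismatches and began 89 bases before the start site, its other match CTCAATAAATAAC had 3 and began 31 bases before it, the match GTTTATGATTACC of Nat8f5 had 2 and began 75 bases before it, and the match GTTTATGATTGTC of Nat8f2 had 3 and began 33 bases before it. A CCAAT box lay downstream of the Nat8f5 and Nat8f2 matches and between the 2 matches of Nat8f6. No match to either motif was marked in the Nat8f1 sequence. By the same criterion, 5 of the 10 listed promoters of the 8 genes held an HNF1-like match, against 8.33% of all 32851 promoters of this length in the table. These were promoters of Nat8f7, Nat8f6, Nat8f5, Nat8f2 and Nat8f4, and Nat8, Nat8f3 and Nat8f1 had none. Promoters of the family are related copies, so they are not independent of each other. For CCAAT the count was 6 of 10 against 37.4%. The HNF4 motif CAAAGTCCA with up to 1 mismatch was found in 2 of 10 against 8.47%, and the E-box CACGTG, bound by clock and other basic helix-loop-helix factors, in 0 of 10 against 7.15%. The motifs and mismatch limits were chosen with these sequences in view, and a match is a description of the letters only.

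The libraries held 46.6 to 62.1 M counts each, of which the 8 genes together held 24041 to 53233 counts. The least abundant, Nat8f4, had 694 to 1163 counts per library. The kidney label was checked on 12 proximal tubule genes, among them Lrp2 and Slc34a1, which summed to 14860 to 26110 CPM (counts scaled by library size and TMM factor), and none was at 0. Library PBS 3 contained adipocyte transcripts, with a sum of 18.7 CPM over Adipoq, Cidec, Plin1 and Lep against 0 to 0.622 CPM in the other 11 libraries. Library PBS 2 had the lowest proximal tubule sum, and EV200 3 the next lowest at 17360 CPM.

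Nat8f1 and Nat8 were the most strongly expressed members per unit of length. Levels between genes are compared in TPM, the authors' deposited values normalised for gene length. In normal kidney Nat8f1 had 451 ± 38.1 TPM, Nat8 had 308 ± 7.73 and Nat8f6 had 194 ± 13 TPM (SD, n = 3). Nat8f5, Nat8f3 and Nat8f7 followed at 90.8 ± 6.28, 81.5 ± 3.65 and 80.4 ± 3.6 TPM. Nat8f2 had 42.1 ± 4.01 TPM and Nat8f4 6.1 ± 0.162 TPM. In normal kidney the libraries of neighbours in this order did not overlap, except for Nat8f3 and Nat8f7. That separation does not cover how reads were assigned among Nat8f3, Nat8f6 and Nat8f7, or between Nat8f1 and Tprkb, which is not known. The order Nat8f1, Nat8, Nat8f6 at the top and Nat8f4 at the bottom held in each of the 12 libraries, while Nat8f2 ranked between 4 and 7. In the PBS group Nat8f5, Nat8f3, Nat8f7 and Nat8f2 lay together at 43.7, 40.8, 40.4 and 40.4 TPM, with overlapping libraries between neighbours.

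Setting PBS beside normal addresses what the cisplatin course with saline injections changed. In these libraries 6 of the 8 genes lay wholly below normal, and the levels of Nat8f2 and Nat8f4 overlapped with it. Of all genes tested, 20% lay wholly below, a share given for scale only, because this comparison drew attention to the genes. Nat8 stood at 205, 201 and 197 CPM in the normal libraries and at 134, 69.6 and 126 CPM in PBS 1, 2 and 3. Nat8f1, also named Cml1, stood at 287, 264 and 239 CPM in normal and at 195, 101 and 183 CPM in PBS. For both genes PBS 2 was the lowest of the 12 libraries and no PBS library reached a normal one. Nat8f5 stood at 51, 51.7 and 56.2 CPM in normal and at 25, 16.9 and 25.2 CPM in PBS. Nat8f6 stood at 149.9, 159 and 168 CPM in normal and at 72, 43.7 and 78.7 CPM in PBS. The highest PBS library of each thus stayed far below the lowest normal one.

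Nat8f3 was at 81 to 89.3 CPM in normal and 24.3 to 45.2 CPM in PBS, and Nat8f7 at 57.7 to 64.5 and 16.9 to 32.8 CPM. Nat8f2 was at 86.3, 74.4 and 84.5 CPM in normal and 63.8, 63.1 and 78.7 CPM in PBS. Nat8f4 was at 15.5, 17.2 and 16.5 CPM in normal and 14.4, 11.5 and 16.8 CPM in PBS. For these 2 genes the highest PBS library lay inside the normal range. The log2 fold changes were -1.29 (SE 0.20) for Nat8f6, -1.24 (SE 0.19) for Nat8f5, -1.18 for Nat8f3, -1.18 for Nat8f7, -0.87 for Nat8 and -0.72 for Nat8f1. They were -0.25 (SE 0.14) for Nat8f2 and -0.21 (SE 0.14) for Nat8f4, and these turned to 0.22 and 0.24 when counts were scaled to the 12 proximal tubule genes instead of to the library. Summed over the 8 genes, the level was 921 ± 12 CPM in normal and 504 ± 136 CPM in PBS (SD, n = 3), a log2 fold change of -0.87.

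**Figure D2:**
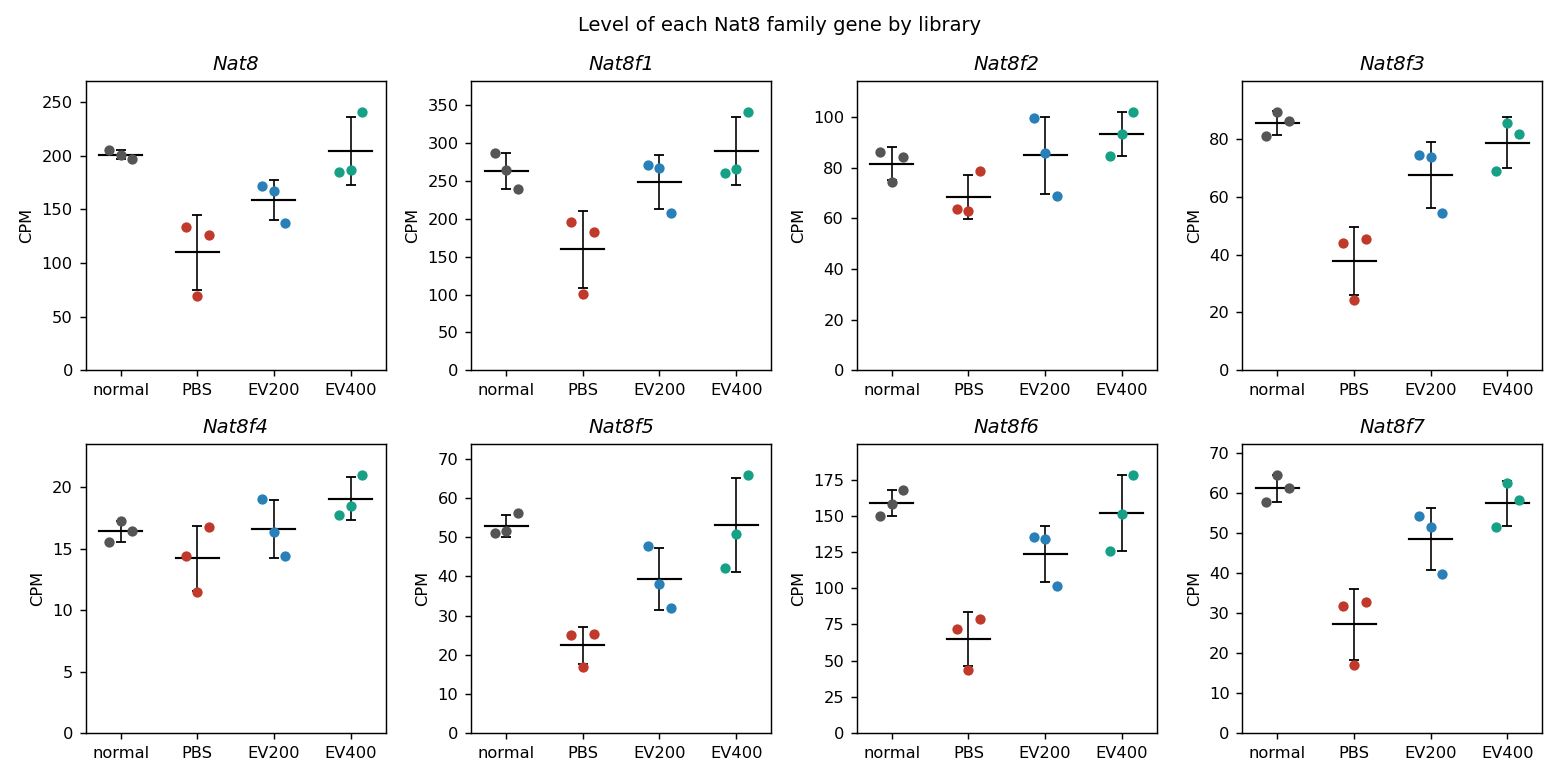
CPM (vertical axes, each from 0) of the 8 genes in the 3 libraries of each group (points), with the group mean (line) and SD (bar). Nat8f6 is at 149.9 to 168 CPM in normal, at 43.7 to 78.7 CPM in PBS and at 126 to 179 CPM in EV400, while Nat8f4 stays between 11.5 and 21 CPM in all 12 libraries.

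Shares of the summed counts differed between the groups' means, which was not tested. Nat8f6 held 17.2 ± 1.2% of the summed counts in normal and 12.8 ± 0.542% in PBS, and Nat8f2 held 8.87 ± 0.688% and 14.2 ± 3.65% (SD, n = 3). The count ratio of Nat8f6 to Nat8f2, which is unaffected by library scaling, was 1.74, 2.13 and 1.99 in normal, 1.13, 0.692 and 0.999 in PBS, 1.36, 1.56 and 1.47 in EV200 and 1.49, 1.62 and 1.75 in EV400. It was lower in each PBS library than in any other library, which follows in part from the choice of the genes, since Nat8f6 was noticed for its low PBS counts. By contrast, the ratio of Nat8f7 to Nat8f3 lay between 0.695 and 0.747 in all 12 libraries, the highest being 1.07 times the lowest. The correlation of their log2 CPM across the 12 libraries was 0.999. Nat8f7 has 64.5% of its windows in common with Nat8f3, so whether they vary together or trade reads cannot be told apart. Nat8 and Nat8f1, which share fewer than 1% of their windows, had a ratio of Nat8f1 to Nat8 between 1.21 and 1.59. Across the 12 libraries their log2 CPM correlated at 0.975, and Nat8f2 correlated with the other 7 genes at 0.738 to 0.875. The libraries share groups, so these correlations describe the groups as much as the genes.

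EV200 was next set against PBS, for the effect of the 200 µg dose after cisplatin. Levels of 6 of the 8 genes lay wholly above the PBS libraries, as did 5.53% of the genes tested, but none was called (an adjusted p under 0.05). Nat8f6 stood at 135, 134 and 102 CPM in EV200 1, 2 and 3, against at most 78.7 CPM in PBS. Nat8f5 stood at 47.8, 38 and 32 CPM against at most 25.2 CPM. Nat8 stood at 172, 167 and 138 CPM, the last just above the 134 CPM of PBS 1, and Nat8f1 at 271, 267 and 207 CPM. EV200 3 was the lowest library of the group for each of the 8 genes. The log2 fold changes were 0.93 (SE 0.20) for Nat8f6, 0.84 for Nat8f3, 0.84 for Nat8f7, 0.81 for Nat8f5, 0.64 for Nat8f1 and 0.53 for Nat8. Nat8f2 (0.31) and Nat8f4 (0.22) overlapped with PBS. In edgeR's quasi-likelihood fit, adjusted over all genes by Benjamini-Hochberg, 0 members passed, with adjusted p of 0.589 to 0.657, where 0.016% of all genes were called. An unadjusted p under 0.05 was found for 7 of the 8, against 6.9% of all genes, and DESeq2 called 4 and limma-voom 6 of the 8. DESeq2 called 0.29% of all genes in this comparison and limma-voom 8.8%. The sum was 788 ± 116 CPM in EV200 (SD, n = 3), with a log2 fold change of 0.64, a 95% interval of 0.24 to 1.04 and an adjusted p of 0.657 by edgeR. The PBS libraries here are those through which the genes were noticed, so these values are not independent of that choice.

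At 400 µg the same comparison was made for EV400. All 8 genes lay wholly above the PBS libraries, against 12.2% of the genes tested, and 1, Nat8f5, was called. As for EV200, the PBS libraries are those through which Nat8f5 and Nat8f6 were noticed. None of the EV400 values against PBS is therefore independent of that choice. Nat8f5 stood at 42.2, 50.9 and 66 CPM in EV400 1, 2 and 3, above the PBS maximum of 25.2 CPM in each. It rose 2.37-fold, a log2 fold change of 1.25 (SE 0.19), with an adjusted p of 0.0493 by edgeR with Benjamini-Hochberg adjustment, where 0.0481% of all genes were called higher. That call sits at the threshold: it was lost without any of the 6 libraries (adjusted p of 0.1 without PBS 1, 0.152 without PBS 2, 0.0608 without PBS 3, 0.0831 without EV400 1, 0.0715 without EV400 2 and 0.19 without EV400 3) and in a fit of the 2 groups alone (0.186), and over its 15 alternatives adjusted p ran from 3.69e-07 to 0.19. Summed with Nat8f6, the log2 fold change was 1.23 with an adjusted p of 0.0519 by edgeR. The 2 genes share exonic bases in the GENCODE models, but their RefSeq spans do not overlap.

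Nat8f6 stood at 126, 151 and 179 CPM in EV400, a log2 fold change of 1.23 (SE 0.20) and an adjusted p of 0.057 by edgeR with Benjamini-Hochberg adjustment, in a range of 6.31e-07 to 0.25 over the alternatives. Without PBS 3 it passed at 0.0436. Nat8 stood at 185, 187 and 241 CPM, a log2 fold change of 0.89, and Nat8f1 at 261, 267 and 341 CPM, a log2 fold change of 0.86. EV400 3 was the highest of all libraries for these 2 genes and for Nat8f5 and Nat8f6. Nat8f7 had 1.08 and Nat8f3 1.06, while Nat8f2 had 0.45 and Nat8f4 0.42. The adjusted p of the 7 genes other than Nat8f5 lay between 0.057 and 0.158 by edgeR, and DESeq2 called 7 and limma-voom 6 of the 8, where they called 6.99% and 14.6% of all genes. All 8 had an unadjusted p under 0.05, against 23.5% of all genes. The sum was 947 ± 130 CPM in EV400 (SD, n = 3), a log2 fold change of 0.91 with a 95% interval of 0.51 to 1.31 and an adjusted p of 0.09 by edgeR. The median log2 fold change of the 8 genes was 0.98, against -0.03 over all genes tested.

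**Figure D3:**
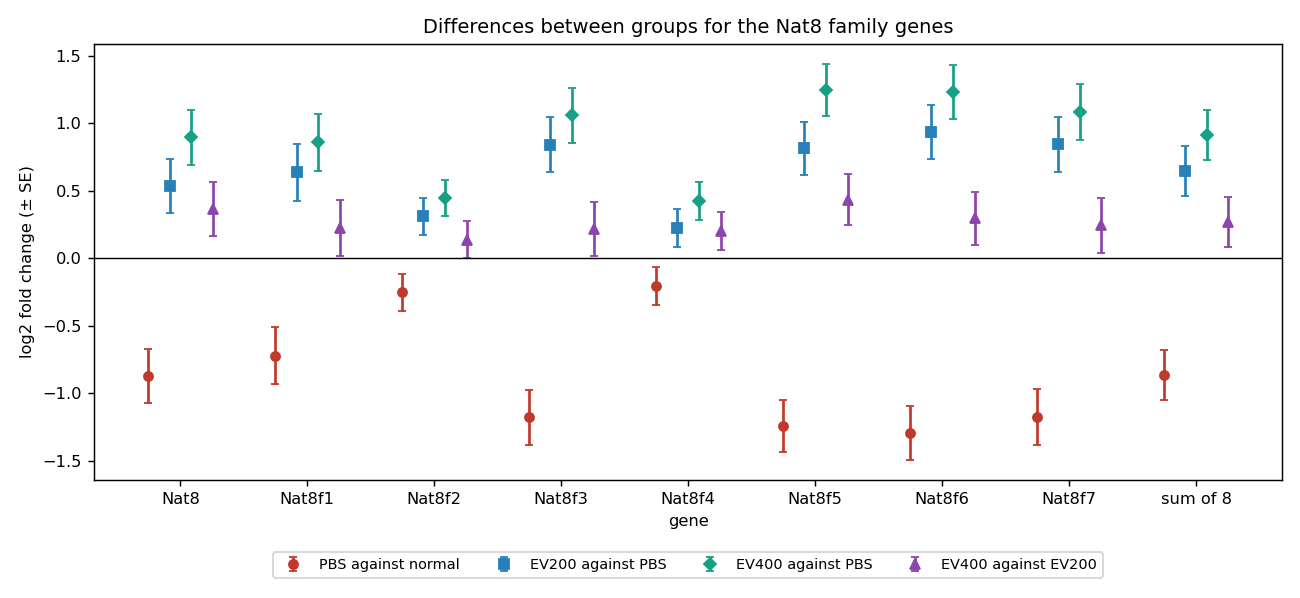
Log2 fold changes with their SE for the 8 genes and their sum in 4 comparisons (colours and symbols), from 1 fit of all 12 libraries. Nat8f5 and Nat8f6 have the largest values in PBS against normal (-1.24 and -1.29) and in EV400 against PBS (1.25 and 1.23), and Nat8f2 and Nat8f4 lie closest to 0 in both; these comparisons share the PBS libraries.

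The 2 doses were compared directly. The fold change rests on the EV200 and EV400 libraries, while the error is estimated from all 12. All 8 log2 fold changes of EV400 against EV200 were above 0, from 0.14 (Nat8f2) to 0.43 (Nat8f5), but 0 genes passed edgeR's test, with adjusted p of 0.769 to 0.845 after Benjamini-Hochberg adjustment, where 0.00534% of all genes were called. Nat8 alone had no overlap between the doses, at 138 to 172 CPM in EV200 and 185 to 241 CPM in EV400, against 5.1% of genes on the higher side. An unadjusted p under 0.05 was found for 1 gene, Nat8f5, against 6.34% of all genes, and DESeq2 and limma-voom called 0 of the 8, where they called 0.0985% and 0.774% of all genes. For the sum the difference was 0.27 on the log2 scale with a 95% interval of -0.13 to 0.66. This interval includes 0, so neither direction was established with 3 libraries a group.

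Against normal, the EV400 level of the sum differed by 0.04 on the log2 scale (95% interval -0.36 to 0.44), turning to -0.09 with limma-voom and to -0.05 without EV400 3. None of the 8 genes was called (0 by edgeR, DESeq2 and limma-voom, and 0 at an unadjusted p under 0.05, where 6.98% of all genes were), and 0% of all genes were called by edgeR, 0.187% by DESeq2 and 7.91% by limma-voom. Only Nat8f4 lay wholly above normal, at 17.7 to 21 CPM against 15.5 to 17.2 CPM, with 8.28% of genes doing so. In EV200 the sum was at -0.23 against normal (95% interval -0.63 to 0.17), turning to 0.03 when scaled to proximal tubule genes. Nat8, Nat8f3, Nat8f5, Nat8f6 and Nat8f7 lay wholly below normal, as did 12.9% of genes, and edgeR called 0 of the 8 where 0.0694% of genes were called. At an unadjusted p under 0.05, reached by 13.2% of all genes, there was 1 gene, Nat8f5, which limma-voom called at -0.44 (adjusted p 0.0385 by limma-voom, in a range of 0.0385 to 0.96 over the alternatives), and DESeq2 called 0. Of all genes, limma-voom called 5.86% and DESeq2 2.62%. These comparisons share the normal libraries with the one that drew attention to the genes.

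The group mean of the proximal tubule marker sum was also lowest in PBS, although EV200 3 lay within the PBS range. EdgeR called 1 of its 12 genes lower in PBS against normal and 0 in EV200 or EV400 against PBS. The shares of all genes called in these 3 comparisons were 2.74%, 0.016% and 0.0801%. In bulk tissue, fewer cells of a type and less RNA per cell cannot be told apart. The sum of the 12 proximal tubule genes was 25480 to 26110 CPM in normal, 14860 to 21390 in PBS, 17360 to 24870 in EV200 and 23280 to 24620 CPM in EV400. A separate list of 4 genes of the S3 segment of the proximal tubule summed to 4322 to 4612 CPM in normal and 2834 to 3607 in PBS. It summed to 2815 to 4032 CPM in EV200 and 3202 to 3663 in EV400, so EV400 overlapped with PBS and lay below normal. Per 1000 counts of the 12 genes, the 8 Nat8 genes had 35.8, 36.1 and 34.8 counts in normal, 27.1, 23.4 and 28.2 in PBS, 35.1, 35.9 and 37.8 in EV200 and 35.5, 39.3 and 44.3 in EV400. On this scale too each PBS library was below each other library. The log2 fold change of the sum was then -0.44 in PBS against normal, in place of -0.87, and all genes tested had a median of 0.49. Per 1000 proximal tubule counts, Nat8f6 had 6.13 ± 0.348 counts in normal, 3.36 ± 0.425 in PBS, 5.69 ± 0.218 in EV200 and 6.36 ± 0.964 in EV400, and Nat8f4 had 0.634 ± 0.0409, 0.752 ± 0.0713, 0.767 ± 0.0638 and 0.8 ± 0.0516 (SD, n = 3). In EV400 against PBS edgeR then called Nat8f5 and Nat8f6, the latter at 0.92 with a Benjamini-Hochberg adjusted p of 0.0284, where 0.0641% of all genes were called and their median log2 fold change was -0.39. Both genes were noticed through these PBS libraries, so the calls are not independent of that choice.

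**Figure D4:**
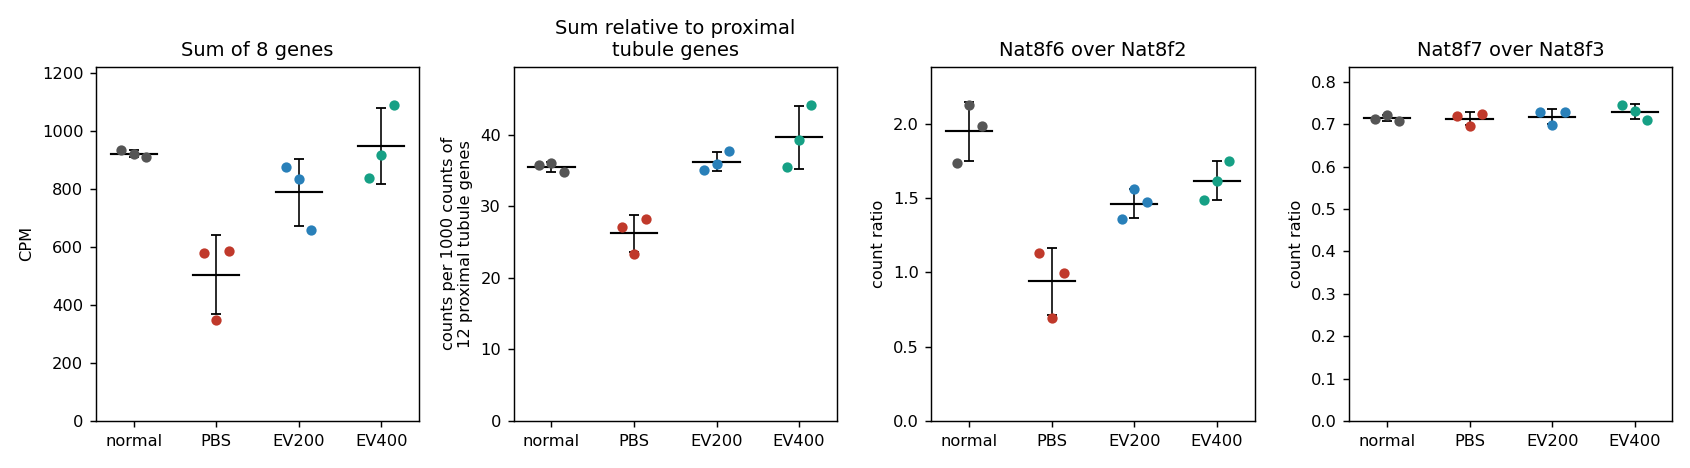
From left, the summed CPM of the 8 genes, the summed counts per 1000 counts of 12 proximal tubule genes, the count ratio of Nat8f6 to Nat8f2 and that of Nat8f7 to Nat8f3, by library (points) with group mean and SD; each vertical axis starts at 0. The PBS libraries are lowest in the first 3 panels, while Nat8f7 over Nat8f3 stays between 0.695 and 0.747.

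Marker sums of other cell types and states also differed between libraries, and their part in these results was not tested. Summed over 4 markers each, fibroblast genes stood at 78.4 to 79.2 CPM in normal and 130.2 to 415 CPM in PBS, macrophage genes at 101 to 110.5 and 151 to 229 CPM, and the tubular injury genes Havcr1, Lcn2, Krt20 and Vcam1 at 8.03 to 11.9 and 37.2 to 121 CPM. The fibroblast sum was 83 to 244 CPM in EV200 and 52.5 to 131 CPM in EV400, and the macrophage sum 117 to 214 and 92.9 to 133 CPM. In EV200 and EV400 the injury sum was 15.4 to 131 CPM and 8.55 to 32.9 CPM, the highest value being EV200 3, the EV200 library with the lowest Nat8 sum, and the lowest being EV400 3, the library with the highest Nat8 sum of 1090 CPM. The 4 markers of liver, another tissue of NAT8 expression, summed to 44.8 to 64.8 CPM in normal, 35.1 to 36.1 in PBS, 36.8 to 51.9 in EV200 and 49 to 55.8 CPM in EV400. In that sum each PBS library was below each other library, as for the Nat8 sum. EdgeR, however, called 0 of the 3 tested in PBS against normal, where 2.74% of all genes were called. Serpina1a held 46.2 of a mean of 54.7 CPM in normal. Its PBS and EV200 libraries overlapped, as did those of Apoa2, and for Alb those of PBS and normal overlapped. The separation was thus not seen in any single marker tested. Markers of the thick ascending limb ran the other way, with sums of 2634 to 3060 CPM in normal, 3534 to 4090 in PBS, 3808 to 4250 in EV200 and 3245 to 3723 CPM in EV400. Of its 4 genes edgeR called 3 higher in PBS against normal: Slc12a1, the sodium-potassium-chloride cotransporter (0.67), Kcnj1, a potassium channel (0.47), and Cldn16, a tight junction protein (0.78). None of the 4 was called in EV200 or EV400 against PBS. The shares of all genes called in the 3 comparisons were 2.74%, 0.016% and 0.0801%. In PBS against normal the median log2 fold changes were 0.52 for podocyte and 0.37 for collecting duct markers. They were 0.05 for distal convoluted tubule and 0.04 for endothelial markers, and none of these markers was called. Without PBS 3, the library with adipocyte transcripts, the log2 fold change of the sum in EV400 against PBS was 1.03. Of 10 circadian clock genes, 1 was higher and 5 were lower in PBS against normal, and 2 were higher and 2 lower in EV400 against PBS. The shares of all genes called in either direction were 2.74% and 0.0801%, and no hour of collection is given. Across the 12 libraries the Nat8 sum correlated at 0.90 with the clock output gene Tef and at -0.78 with Arntl, which encodes the clock activator BMAL1. These 2 were picked after their values were seen. The 10 clock genes ran from -0.78 (Clock) to 0.90 (Tef), with Nr1d1 at 0.09. Among 10617 genes with a mean of at least 5 CPM, 5.65% correlated with the sum above 0.9.

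Other genes around mercapturate formation were set beside the family. Of 54 genes listed for glutathione synthesis, conjugation, trimming, beta-lyase cleavage, deacetylation, transport and related acyl transfer, 52 were tested. In PBS against normal 2 were called lower and 0 higher, against 2.74% of all genes called in either direction, and their median log2 fold change was -0.29 against 0.00 over all genes. Both were aminoacylases, which remove acyl groups from amino acids: Acy1, which acts on N-acetylated amino acids, fell from 104 ± 1.19 to 60.5 ± 15.1 CPM (-0.78), and Aspa, which cleaves N-acetylaspartate, fell from 129 ± 2.92 to 84.1 ± 11.2 CPM (-0.62). The Benjamini-Hochberg adjusted p from edgeR were 0.0471 and 0.0436. The count is unstable: without normal 1, normal 2, normal 3, PBS 2 or PBS 3 it was 0, without PBS 1 it was 15, and it was 16 with DESeq2 and 37 with limma-voom, which called 16.2% and 32.9% of all genes. The share of all genes called was not computed for the fits that left out a library.

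Acy3, the aminoacylase that takes the acetyl group off mercapturates and the most abundant of the 3, stood at 2619 ± 58.1 CPM in normal and 1834 ± 349 CPM in PBS (-0.51). The most abundant genes of the other steps had log2 fold changes in PBS against normal of -0.43 for Gss (glutathione synthetase), -0.08 for Gstm1 (a glutathione S-transferase), -0.46 for Ggt1 (gamma-glutamyl transferase), -0.27 for Got2 (a mitochondrial aminotransferase with beta-lyase activity) and -0.50 for Slc22a6 (the organic anion transporter OAT1). They were -0.45 for Acsm2 (a medium-chain acyl-CoA synthetase) and -0.31 for Slc33a1. None of these 8 genes was called. In EV400 against PBS 0 of the 52 were called by edgeR, 8 by DESeq2 and 13 by limma-voom, where these called 0.0801%, 6.99% and 14.6% of all genes. Acy1 had 0.71 and Aspa 0.69 there, and the median over the 52 was 0.28 against -0.03 over all genes. In EV200 against PBS 0 were called by edgeR, 0 by DESeq2 and 9 by limma-voom, where these called 0.016%, 0.29% and 8.8% of all genes.

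Other genes in and around the array were listed for comparison. Within 500 kb of it the table holds 18 other protein-coding genes, of which 14 were tested. By edgeR 0 were called in PBS against normal, EV200 against PBS or EV400 against PBS, where 2.74%, 0.016% and 0.0801% of all genes were called, so a count of 0 among 14 sets them apart from no other genes. DESeq2 called 1, 0 and 1 of them in these comparisons and limma-voom 4, 0 and 1, where DESeq2 called 16.2%, 0.29% and 6.99% of all genes and limma-voom 32.9%, 8.8% and 14.6%. Their median log2 fold changes were -0.04, 0.02 and 0.14. In PBS against normal the values ran from -0.43 for Tprkb to 1.02 (SE 0.45) for Add2, a membrane skeleton gene at only 0.493 CPM in PBS and 0.243 CPM in normal, with Tia1 next at 0.39. In EV400 against PBS they ran from -0.33 to 0.47. Alms1, a ciliary gene whose RefSeq span (85587498 to 85726611) holds the whole of Nat8f7, had 0.18 in PBS against normal and -0.30 in EV400 against PBS. Dusp11, encoding an RNA phosphatase on the other side of the array, had 0.03 and -0.14. Tprkb, which overlaps exons of Nat8f1 on the opposite strand, had -0.43 and 0.47, with 133 ± 9.18 CPM in normal, 98.7 ± 13.9 in PBS and 136 ± 15.3 CPM in EV400 (SD, n = 3). Pcyox1, the most abundant of the neighbours, stood at 132 ± 9.23 CPM in PBS and 132 ± 4.64 CPM in EV400. Within the array, the 2 genes with the smallest differences, Nat8f2 and Nat8f4, lie side by side between Nat8 and Nat8f1.

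**Figure D5:**
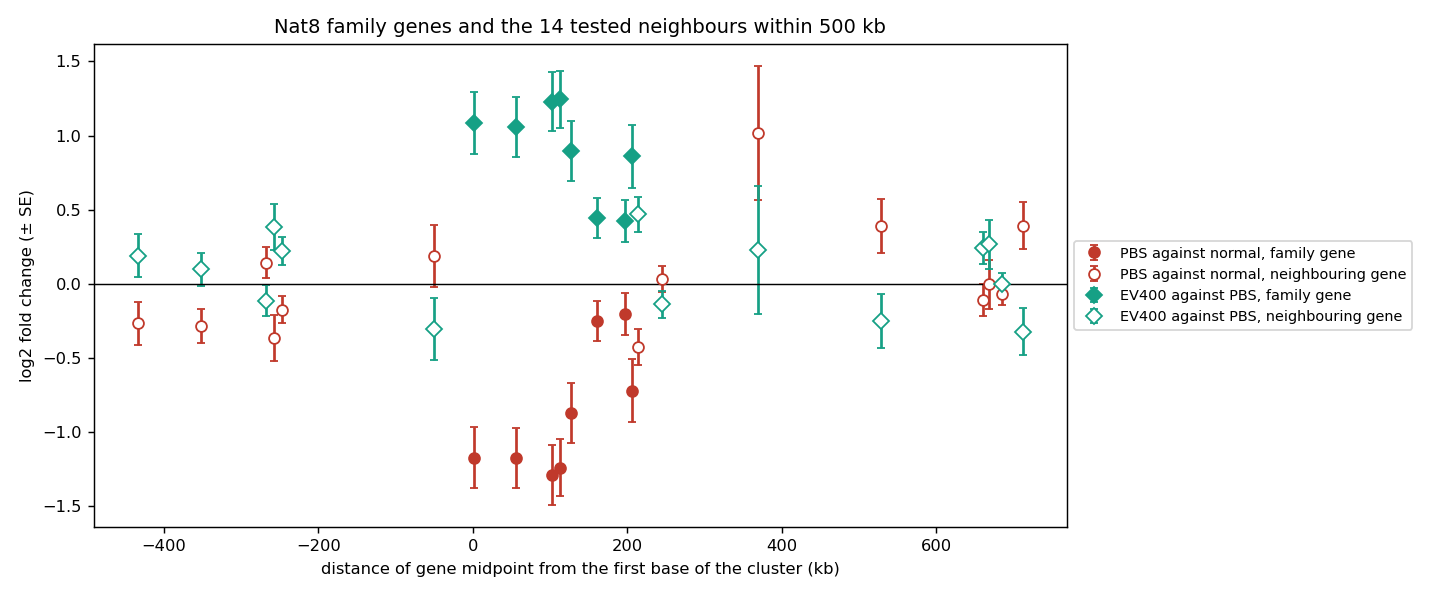
Log2 fold change with its SE of the 8 family genes (filled) and 14 tested neighbours (open) against the distance of the gene's midpoint from the first base of the array in kb, for PBS against normal (circles) and EV400 against PBS (diamonds). In PBS against normal, Nat8f6 lies at -1.29 and the neighbours Alms1, Dusp11 and Tprkb at 0.18, 0.03 and -0.43. Tprkb lies further from 0 there than the family genes Nat8f2 (-0.25) and Nat8f4 (-0.21). The open circle near 1 is Add2.

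By pattern across the 12 libraries, the genes most like the sum were searched among 10617 genes with a mean of at least 5 CPM, leaving out provisional symbols. The 6 with the highest Pearson correlation of log2 CPM were Prss8, encoding the channel-activating protease prostasin (0.99), Dmac2, encoding an assembly factor of a respiratory complex (0.98), Ak4, encoding a mitochondrial adenylate kinase (0.98), Dgat2, encoding an enzyme of triglyceride synthesis (0.98), Acy1 (0.98) and Fcgrt, encoding the neonatal Fc receptor (0.98). Of all genes compared, 5.65% had a correlation above 0.9, and the median was 0.20. By rank the order differs: Dmac2 and Fcgrt had Spearman's rho of 0.811 and 0.853 with the sum, at ranks 747 and 418 of the genes compared, while the other 4 had 0.909 to 0.944. PBS 2 weighed heavily on this: without it 90 genes in place of 600 were above 0.9, and without PBS 1 there were 1006. Nat8f6 was most like Ak4, Ogfod3 and Dnajc6 (0.97 to 0.98), and Nat8f5 most like Fam169b, Ddx24 and Itpripl1 (0.97 to 0.98).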

How the data were processed

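Counts, FPKM and TPM per gene were deposited by the authors in 1 table, and the column names of the file header give these units. The submitters' processing notes list HISAT2 2.1.0, StringTie 2.1.3b, FastQC 0.11.7 and Trimmomatic 0.38 and the builds mm10 and GRCm38. How reads were counted, on which strand and with what treatment of multiple matches is not given in the sources used here. Read counts as deposited were tested in R 4.3.3 with edgeR 4.0.16 (TMM factors, the default expression filter by group, quasi-likelihood test, Benjamini-Hochberg adjustment over 18730 genes, 8 residual degrees of freedom), with all 12 libraries in 1 fit. The sum replaced the 8 rows by 1 row of summed counts. The authors' deposited TPM values served for levels between genes, and their FPKM values only as an alternative. Correlations used log2 CPM with 2 counts added. Limma 3.58.1 and DESeq2 1.42.0 served as alternatives. The test was tried on simulated data.

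Genes and lists were chosen with earlier results of these data known. Named were the 8 genes, the most similar genes by correlation (6 for the sum, 3 each for Nat8f5 and Nat8f6), and of other lists the called and the most abundant genes; the neighbours Alms1, Dusp11 and Tprkb were chosen for their position, and Add2, Tia1, Tef and Arntl after their values were seen. Promoters come from a RefSeq table of GRCm38.p6, which held 10 entries for the 8 genes. Coding identity and shared windows were computed from GENCODE vM21 transcripts. Replicate numbers are taken from the labels; same-numbered libraries did not deviate together (correlation above 0.1 in 2 of 18 pairs).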

Additional observations from a re-analysis of the deposited data

How the results depend on the processing

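Of 968 alternative values computed, 862 were rated unchanged, by a rule that differed with the kind of value. A tested value had to keep its direction and its side of the threshold. An untested value of PBS against normal had to keep its direction and shift by less than the SD between libraries. Counts had to stay within a set ratio of the main count. The replicate number as a block gave 0 called genes in EV400 against PBS (Nat8f5 at 1.25, adjusted p 0.0891 by edgeR) and 0 called pathway genes in PBS against normal, and it turned Nat8f5 in EV400 against normal to -0.002; it ended no other call, and the numbers do not pair the libraries. A fit of only the groups compared gave 0 called genes in EV400 against PBS and 5 pathway genes in PBS against normal. No filter on low counts gave 2 and 1. The share of all genes called was not computed for the block, the fit of only the groups compared or the absent filter. DESeq2 called 4 genes in EV200 and 7 in EV400 against PBS, with the sum in EV400 at 0.91 (adjusted p 0.000179 by DESeq2), 16 and 8 pathway genes in PBS against normal and EV400 against PBS, and 1 neighbour in each of these. Limma-voom called 6 and 6 genes, with sums at 0.53 (EV200, adjusted p 0.0247) and 0.60 (EV400, adjusted p 0.00674), 1 gene in EV200 against normal, 37, 9 and 13 pathway genes in PBS against normal, EV200 and EV400 against PBS, and 4 neighbours in PBS against normal and 1 in EV400 against PBS; its weights ran from 0.163 (PBS 2) to 3.47 (PBS 3). Limma-voom turned values to 0.001 (Nat8f1, EV200 against normal), -0.09 (Nat8), -0.23 (Nat8f5) and -0.086 (sum), the last 3 in EV400 against normal. Of all genes, DESeq2 called 16.2% in PBS against normal, 0.29% in EV200 against PBS and 6.99% in EV400 against PBS. Limma-voom called 32.9%, 8.8% and 14.6% in these, and 5.86% in EV200 against normal.

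Scaling to proximal tubule genes moved PBS against normal to -0.44 (sum) and -0.61 (median of the 8 genes, -1.02 otherwise), turned Nat8f2 to 0.22 and Nat8f4 to 0.24, and gave 9 pathway genes and 4 neighbours there. The share of all genes called there was not computed, and the median log2 fold change of all genes was 0.49. This scaling gave 2 called genes in EV400 against PBS, where 0.0641% of all genes were called. Against normal it turned Nat8f1 (0.17) and the sum (0.029) in EV200, and Nat8f3 (0), Nat8f6 (0.053) and Nat8f7 (0.029) in EV400. Summing Nat8f5 with Nat8f6 turned Nat8f5 in EV400 against normal to -0.047. Summing Nat8f3, Nat8f6 and Nat8f7, chosen after seeing the data, changed no call or direction. By Spearman correlation 135 genes in place of 600 were above 0.9. FPKM gave the same ranks as TPM in each of the 96 gene and library pairs.

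Leaving out each library in turn gave 0 to 1 called genes in EV400 against PBS, 0 to 15 pathway genes and 0 to 1 neighbours in PBS against normal, 90 to 1006 similar genes, and -0.053 (without EV400 3) to 0.137 for the sum in EV400 against normal. The share of all genes called was not computed for these fits. Values of single genes close to 0 changed sign. In EV200 against normal, Nat8f1 ran from -0.14 to 0.029 (without EV200 3), Nat8f2 from -0.064 (without EV200 1) to 0.185, and Nat8f4 from -0.082 (without EV200 1; -0.006 without normal 1) to 0.11. In EV400 against normal, Nat8 ran from -0.095 (without EV400 3) to 0.102, Nat8f5 from -0.167 (without EV400 3; -0.007 without normal 1 and -0.001 without normal 2) to 0.156, and Nat8f6 from -0.178 to 0.069 (without EV400 1). Beyond what the settings themselves change, the cause was not tested. With 3 libraries a group, differences near the SE of 0.135 to 0.211 were not detectable. Reads of Nat8f3, Nat8f6 and Nat8f7 cannot be told apart over much of their length.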
